A study of Sus scrofa with 9 samples.

Results

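The myogenic regulatory factors and the MEF2 factors, transcription factors that together switch on muscle genes, were followed in the skeletal muscle of obese and control minipigs. The members were fixed by name as MYOD1, MYF5, MYOG, MYF6, MEF2A, MEF2C and MEF2D. Of these 7 genes, 5 had a probe named through a RefSeq accession, with 10 probes in all, among 3196 genes that could be named on the array. No probe was named for MYF5 or MEF2D, and both were not analysed here.

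The arrays measured RNA of longissimus dorsi, the long back muscle, from Bama minipigs, a small Chinese breed. The HFHSD group (6 pigs) was fed a high-fat high-sucrose diet of 53% basal feed, 37% sucrose and 10% lard for 23 months, starting at an age of 6 months. The CD group (3 pigs) received standard pig chow over the same period. Both groups held intact males and females, were fed a restricted ration and were fasted overnight before dissection, and the labels do not give the sex of each pig. The growth protocol counts 6 CD pigs whereas the series design counts 3, and 3 CD arrays were deposited. By its title, the series is about fat deposition and impaired muscle growth in obesity, and the comparison of HFHSD with CD asks which transcripts differ in muscle between the diets.

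The myogenic regulatory factors are basic helix-loop-helix proteins that pair with E proteins and bind E-boxes in the control regions of muscle genes. MYF5 and MYOD1 commit precursors to the muscle lineage and are made in activated satellite cells, the stem cells of adult muscle. MYOG drives the differentiation of myoblasts, and MYF6, also called MRF4, is the family member made most strongly in adult fibres. The MEF2 factors are MADS-box proteins that bind A/T-rich sites, act together with the myogenic factors, and carry calcium signals to the genes of oxidative metabolism and slow fibres. MEF2C is not made in muscle fibres alone, since endothelial cells, smooth muscle and B lymphocytes make it too.

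Levels are given as log2 of the processed signal minus the 75th percentile of that array, so that 0 is the 75th percentile and each unit is a doubling. The percentage of probes that the scanner software called well above background ran from 36.7% on CD 1 to 68.8% on HFHSD 6. CD 1 also had the most variable negative controls, with an SD of 5.66 against 1.67 to 2.65 on the other arrays. Across the series, 345 of 27922 tested probes passed limma at an adjusted p under 0.05, which is 1.24%, with 194 higher and 151 lower in HFHSD. That split became 47 higher and 81 lower when arrays were centred on their medians, and 63 higher and 25 lower after normexp background correction with percentile scaling. Each of these settings moved the median difference of all tested probes by -0.15. In the normexp setting with CD 1 left out, a fit chosen after seeing the data, the split was 92 higher and 123 lower. The median there moved by 0.06, and no other array was left out of that setting. Of the 10 markers listed for skeletal muscle fibres 9 were measured, and their mean level ran from 9.47 to 10.2 over the 9 arrays, so the labelled tissue matched its markers.

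None of the member probes passed limma (0 of 10, beside 1.24% of all tested probes, 0.695% higher and 0.541% lower). An unadjusted p under 0.05 was reached by 4 of 10, beside 16.5% of all tested probes. Those 4 were the single MYOD1 probe, which was lower in HFHSD, and all 3 MEF2C probes, which were higher. The arrays of the 2 diets separated without overlap for 3 of 10 member probes, beside 10.9% of all tested probes: 2 were higher in HFHSD, beside 4.78%, and 1, the MYOD1 probe, was lower, beside 6.11%, with 4 of its 9 values not above background. All 7 MEF2 probes were higher in HFHSD and the 3 probes of myogenic regulatory factors were lower, and the median difference of the 10 probes was 0.31, against -0.02 over all tested probes. Probes of a gene share their target, so the 7 MEF2 probes stand for 2 genes, and that median mostly reflects those 2. By the brightest probe of each gene, MYOD1, MYOG and MYF6 were lower, at -1.93, -0.26 and -0.38. MEF2A and MEF2C were higher by that measure, at 0.29 and 0.93.

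**Figure D1:**
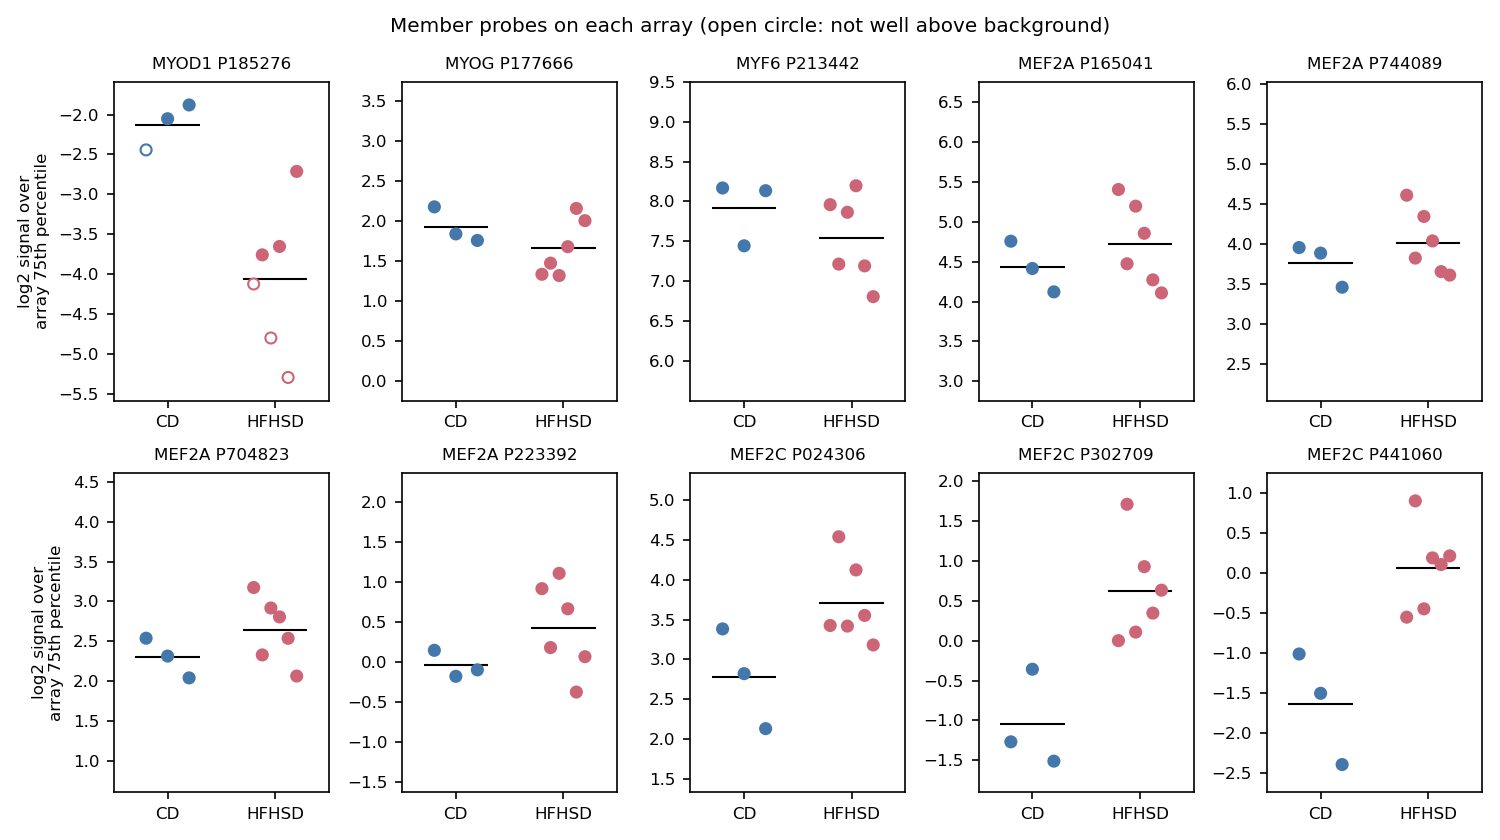
Level of each member probe on each array, as log2 signal over the 75th percentile of the array, with CD in blue, HFHSD in red, the group mean as a bar and open circles where the probe was not well above background; every panel spans the same range of log2 units. The CD and HFHSD arrays separate for MYOD1 and for the 2 dimmer MEF2C probes and overlap for the other 7 probes. For MYOD1 this places CD 1, an open circle, above HFHSD 6.

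MYOD1, the factor that commits cells to the muscle lineage, gave lower signals in HFHSD muscle than in CD muscle. Its level was -2.44, -2.05 and -1.88 on CD 1, CD 2 and CD 3. In HFHSD it was -4.12, -3.76, -4.80, -3.65, -5.29 and -2.71 on arrays 1 to 6. The values of CD 1, HFHSD 1, HFHSD 3 and HFHSD 5 are signals that were not above background, so they have no order among themselves. For the same reason it is not known whether CD 1 truly lay above HFHSD 6, the highest HFHSD array. The CD mean was -2.12 ± 0.29 (SD, n = 3), and that of HFHSD was -4.06 ± 0.91 (SD, n = 6). The difference was -1.93 (SE 0.49, 95% interval -3.03 to -0.83), with a limma adjusted p of 0.0860, and it includes those 4 arrays.

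The MYOD1 probe lay near the background of the arrays. It was well above background on 2 of 3 CD arrays, CD 2 and CD 3, and on 3 of 6 HFHSD arrays, HFHSD 2, HFHSD 4 and HFHSD 6. Its processed signal was 53.6 on CD 2 and 55.4 on CD 3, several times the weakest signal called well above background there, 9.89 and 11.5. On HFHSD 6 it was 44.9, and on HFHSD 2 and HFHSD 4 it was 15.1 and 13.5, just over limits of 9.67 and 12.05. On CD 1 the signal of 24.5 fell under a limit of 32.8, the highest limit of the 9 arrays, so the CD mean includes an array on which MYOD1 was not measured above background. The HFHSD mean likewise includes HFHSD 1, HFHSD 3 and HFHSD 5, with signals of 9.86, 5.96 and 6.03. After normexp correction, which adds an offset of 50 to every signal and so compresses dim probes, the difference was -0.82 with percentile scaling (adjusted p = 0.294 by limma) and -0.44 with quantile normalisation. With CD 1 left out of the percentile-scaled normexp fit it was -0.53. In bulk muscle, fewer cells that make MYOD1 and less MYOD1 RNA per cell cannot be told apart.

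**Figure D2:**
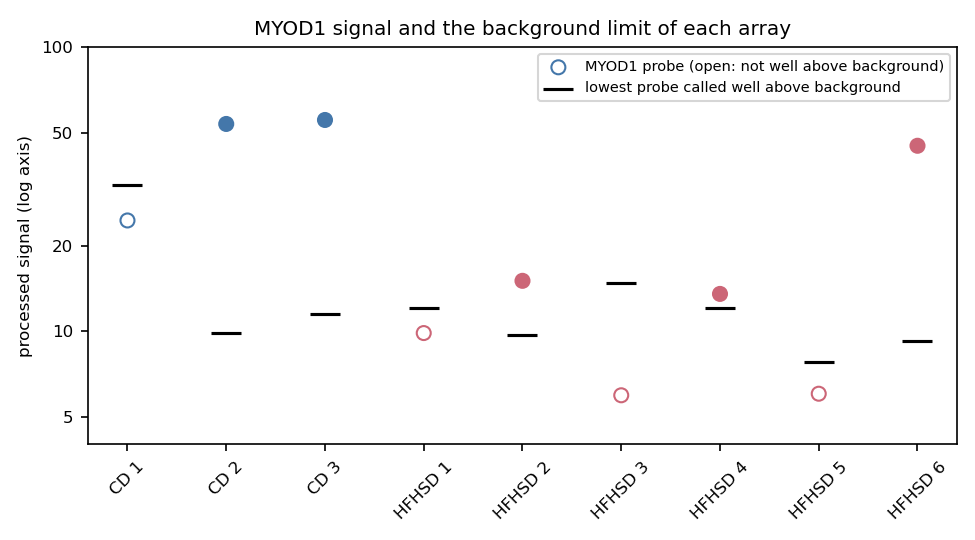
Processed signal of the MYOD1 probe on each array on a log axis (circles, open where not well above background), with a dash at the weakest signal called well above background on that array. MYOD1 stands clear of the limit on CD 2, CD 3 and HFHSD 6, just above it on HFHSD 2 and HFHSD 4, and below it on CD 1, HFHSD 1, HFHSD 3 and HFHSD 5.

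MYOG, the factor of myoblast differentiation, was measured well above background on all 9 arrays and did not separate the diets. Its level was 2.18, 1.84 and 1.76 on CD 1, CD 2 and CD 3. In HFHSD it was 1.33, 1.47, 1.32, 1.68, 2.16 and 2.01 on arrays 1 to 6. The 4 lowest values of the series belonged to HFHSD 1 to HFHSD 4, while HFHSD 5 and HFHSD 6 lay within the CD range. The CD mean was 1.93 ± 0.22 (SD, n = 3), and that of HFHSD was 1.66 ± 0.35 (SD, n = 6). They differed by -0.26 (SE 0.24, 95% interval -0.80 to 0.28, limma adjusted p = 0.667). The sign turned to 0.0087 after normexp correction with percentile scaling, and was back at -0.21 in that setting with CD 1 left out. HFHSD 5 and HFHSD 6 shared a slide that was scanned on another day than the others and that held no CD array. With slide as a fixed block the MYOG difference was -0.54 (limma adjusted p = 0.187).

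MYF6, the myogenic factor of mature fibres, was far above background on every array. Its level was 8.17, 7.45 and 8.14 on CD 1, CD 2 and CD 3. In HFHSD it was 7.96, 7.22, 7.87, 8.20, 7.19 and 6.81 on arrays 1 to 6. The highest value of all belonged to HFHSD 4 and the lowest to HFHSD 6, with the CD arrays inside this range. The CD mean was 7.92 ± 0.41 (SD, n = 3), and that of HFHSD was 7.54 ± 0.54 (SD, n = 6). They differed by -0.38 (SE 0.34, 95% interval -1.13 to 0.38, limma adjusted p = 0.656), which turned to 0.09 after normexp correction with percentile scaling. In that setting CD 1 was at 6.09 against 7.02 and 7.71 on CD 2 and CD 3, and without CD 1 the difference there was -0.33. The older annotation carried by the files of HFHSD 5 and HFHSD 6 gives this probe a transcript cluster name, and the newer one carried by the other 7 arrays gives it the MYF6 accession.

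MEF2A, a MEF2 factor of differentiated muscle, was covered by 4 probes, 2 for each of its RefSeq transcripts. All 4 were well above background on every array and all 4 were slightly higher in HFHSD, with no difference larger than the spread between pigs. The brightest probe was at 4.76, 4.41 and 4.12 on CD 1, CD 2 and CD 3. In HFHSD it was at 5.40, 4.47, 5.19, 4.85, 4.27 and 4.11 on arrays 1 to 6. HFHSD 1, HFHSD 3 and HFHSD 4, which shared a slide with CD 1, were the 3 highest, CD 1 was the next, and HFHSD 6 and CD 3 were the lowest. The difference of this probe was 0.29 (SE 0.32, 95% interval -0.42 to 0.99, limma adjusted p = 0.732). The other 3 probes differed by 0.25, 0.34 and 0.47 (limma adjusted p = 0.721, 0.598 and 0.535). By RefSeq transcript, the differences were 0.29 and 0.25 for the probes of NM_001097421 and 0.34 and 0.47 for the probes of NM_001099698. With normexp correction and percentile scaling the 4 differences became 0.68, 0.67, 0.61 and 0.41, none of which passed. With CD 1 left out of that setting they were 0.37, 0.28, 0.36 and 0.41.

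MEF2C, the MEF2 factor that in muscle is tied to sarcomere assembly and to the slow fibre programme, had higher signals in HFHSD by all 3 of its probes, which carry the same accession. The brightest probe was at 3.38, 2.82 and 2.13 on CD 1, CD 2 and CD 3. In HFHSD it was at 3.43, 4.54, 3.42, 4.12, 3.55 and 3.18 on arrays 1 to 6. Only HFHSD 6 fell below CD 1, and every HFHSD array lay above CD 2 and CD 3. The difference was 0.93 (SE 0.36, 95% interval 0.13 to 1.73, limma adjusted p = 0.231), a 1.90-fold higher signal.

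The 2 dimmer MEF2C probes separated the groups completely. A_72_P302709 was at -1.27, -0.36 and -1.51 on CD 1, CD 2 and CD 3, and at -0.00085, 1.71, 0.11, 0.93, 0.34 and 0.63 on HFHSD 1 to HFHSD 6. A_72_P441060 was at -1.01, -1.504 and -2.40 on the CD arrays, and at -0.55, 0.91, -0.45, 0.19, 0.11 and 0.22 on the HFHSD arrays, in the same order. HFHSD 2 was the highest array and CD 3 the lowest for all 3 MEF2C probes. The difference was 1.66 (SE 0.40, 95% interval 0.77 to 2.56, limma adjusted p = 0.0759) for A_72_P302709. For A_72_P441060 it was 1.71 (SE 0.38, 95% interval 0.87 to 2.55, limma adjusted p = 0.0609), a 3.27-fold higher signal. Both were well above background on all 9 arrays, but their CD signals were not far from the offset of 50 that normexp adds. On CD 1, CD 2 and CD 3 these signals were 55.4, 173 and 71.6 for A_72_P302709, and 66.2, 78.4 and 38.7 for A_72_P441060. With normexp correction and percentile scaling the differences of both probes shrank to 0.86 (limma adjusted p = 0.424 and 0.397) and their groups overlapped. Without CD 1 they were 1.08 and 1.21 in that setting. The brightest probe went the other way in that setting, to 1.27 (limma adjusted p = 0.123), and its groups no longer overlapped there. With the mean of the 3 probes as the level of the gene, the MEF2C difference was 1.43 (limma adjusted p = 0.0798). Whether the 3 probes differ among themselves was not tested.

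**Figure D3:**
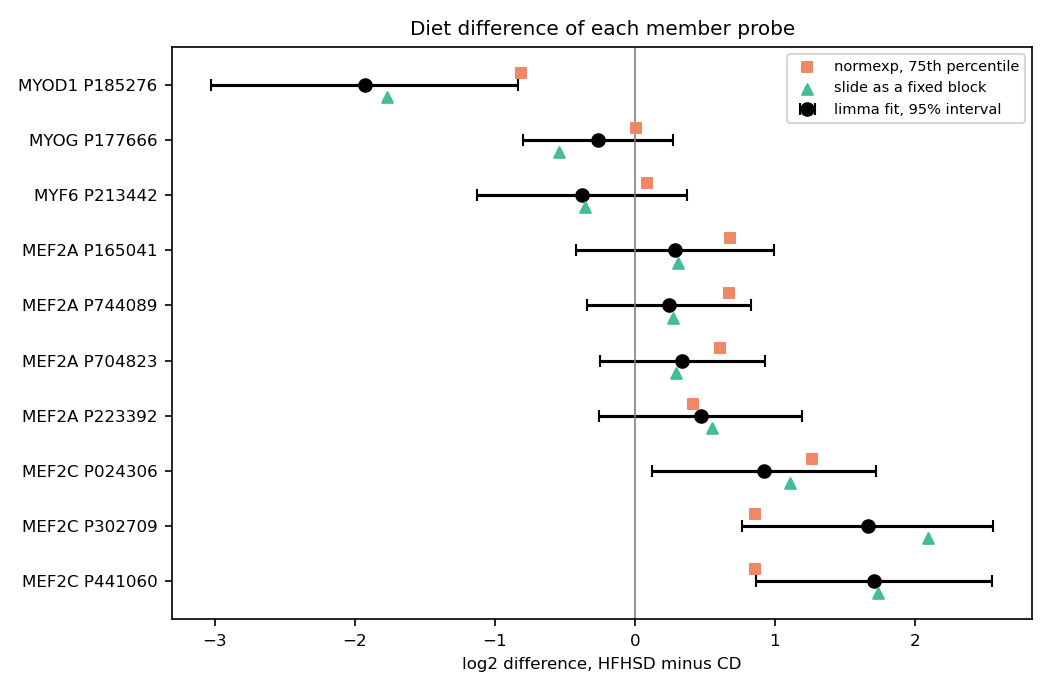
Difference between HFHSD and CD in log2 for each member probe, with the limma 95% interval (black), and the same difference after normexp correction with percentile scaling (squares) and with slide as a fixed block (triangles). The intervals of MYOD1 and of the 3 MEF2C probes leave out 0 before adjustment, and those of MYOG, MYF6 and the 4 MEF2A probes include it.

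The arrays came from 3 slides, and the members were compared within the 2 slides that held both diets. Slide 2 held CD 1 with HFHSD 1, HFHSD 3 and HFHSD 4, slide 3 held CD 2 and CD 3 with HFHSD 2, and slide 1 held only HFHSD 5 and HFHSD 6. The MYOD1 difference was -1.75 within slide 2 and -1.79 within slide 3. On slide 2 the probe was above background on HFHSD 4 alone, so the slide 2 value is largely one of signals not above background. A_72_P302709 of MEF2C differed by 1.61 within slide 2 and 2.64 within slide 3, and A_72_P441060 by 0.74 and 2.86. For the brightest MEF2C probe the value was 0.27 in slide 2 and 2.06 in slide 3, whose only HFHSD array was the highest of the series. MYOG differed by -0.73 and -0.33, MYF6 by -0.16 and -0.57, and the brightest MEF2A probe by 0.39 and 0.21, within slides 2 and 3. No member probe changed sign between the slides, but each within-slide value has a single array on one side and no test.

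**Figure D4:**
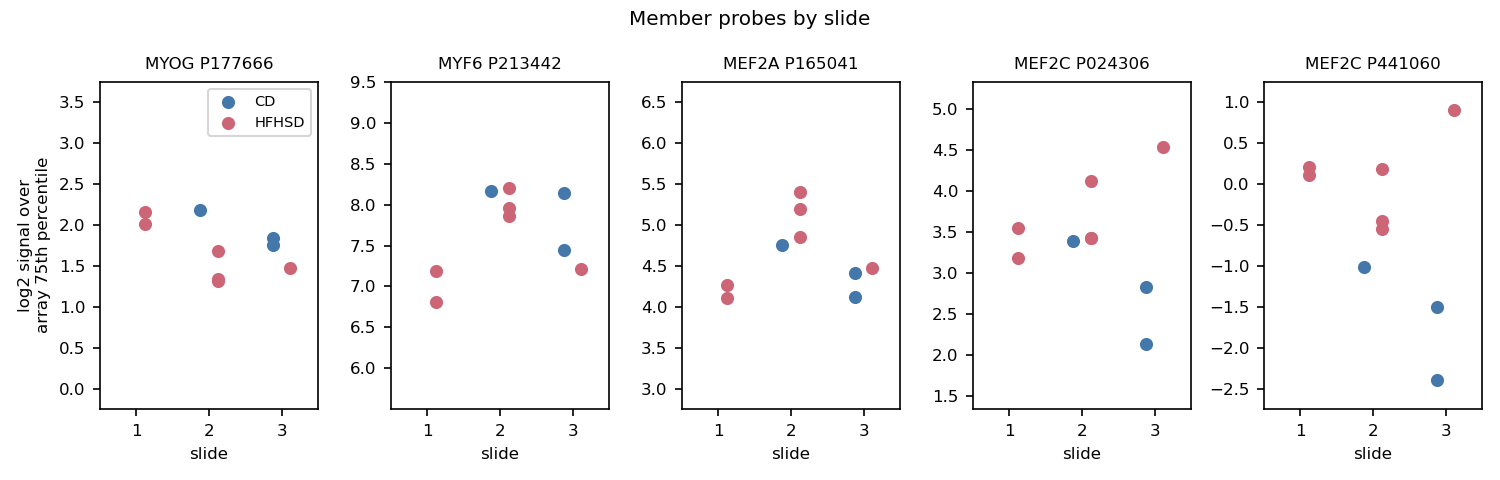
Level of 5 member probes by slide, as log2 signal over the 75th percentile of the array, with CD in blue and HFHSD in red. Within slide 3 the HFHSD array lies above the CD arrays for both MEF2C probes, and MYF6 and MEF2A are lowest or near the lowest on slide 1, which has no CD array.

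Some settings brought single member probes past the threshold, and these settings passed more probes over the whole array too. The main fit passed 345 of 27922 tested probes. Of the same 27922, 1206 passed with array weights, 678 with slide as a random block and 615 with a variance trend and robust prior. With only probes well above background on all 9 arrays, 735 of 15847 passed. With array weights, which give less consistent arrays less influence, MYOD1 (limma adjusted p = 0.0262) and the 2 dimmer MEF2C probes (0.0476 and 0.0282) passed. The same 2 MEF2C probes passed when only probes well above background on all 9 arrays were tested (limma adjusted p = 0.0370 and 0.0279), a filter that removes MYOD1. A_72_P302709 also passed with slide as a random block (0.0393), and A_72_P441060 with a variance trend and robust prior (0.0398), in limma. With slide as a fixed block neither they nor MYOD1 passed (limma adjusted p = 0.0802, 0.132 and 0.198). Leaving out single arrays kept the sign of every member probe and brought 0 of 10 past the threshold. In these fits MYOD1 ran from -2.20 to -1.68, A_72_P302709 from 1.43 to 2.01 and A_72_P441060 from 1.33 to 2.02. The brightest MEF2C probe ran from 0.60 without CD 3 to 1.23 without CD 1. MYOG shrank to -0.14 without CD 1. MYF6 was -0.61 without CD 2, -0.25 without CD 1 and -0.23 without HFHSD 6. Without CD 3 the MEF2A probes A_72_P165041, A_72_P744089 and A_72_P704823 were at 0.13, 0.09 and 0.21. Without HFHSD 1 the first and second of these were at 0.15 and 0.13, and without CD 1 the first was at 0.45. The small differences of MYOG, MYF6 and MEF2A thus moved with single arrays. Without slide 1 MYOG was -0.47, MYF6 -0.11 and A_72_P165041 of MEF2A 0.55.

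Markers of other cell types were compared because MEF2C is also made outside the fibres. For endothelial cells 4 of 6 markers were measured (PECAM1, CDH5, VWF and CLDN5), 0 passed, and their mean level ran from 2.11 to 2.28 in CD and from 1.86 to 2.82 in HFHSD. For smooth muscle and pericytes 3 of 6 were measured and 3 were lower in HFHSD, beside 1505 of 2613 tested genes lower. The mean level of these 3 markers ran from 5.12 to 5.78 in CD and from 4.36 to 5.32 in HFHSD. The B cell marker CD79A was well above background on 0 arrays and MS4A1 on 1 array. Of the 8 adipocyte markers 4 were above background on all 9 arrays (ADIPOQ, FABP4, CIDEA and LIPE). Of these, 4 of 4 had a higher mean in HFHSD, beside 1108 of 2613 tested genes higher. CIDEA passed, and the mean level of the 4 markers ran from 2.19 to 2.26 in CD and from 2.97 to 4.33 in HFHSD. LEP, CIDEC and PLIN1 passed the filter on dim probes through the HFHSD arrays and are left out of that count. PLIN1, the lipid droplet coat protein, cleared the background on 5 of 6 HFHSD arrays and on 0 of 3 in CD, so it was tested through HFHSD alone. Its contrast between the diets therefore adds no support to that count. Of the 6 satellite cell markers 2 were measured, VCAM1 and CXCR4, and only VCAM1 was above background on all 9 arrays. Its level ran from 0.79 to 1.18 in CD and from 1.45 to 2.26 in HFHSD. CXCR4, not above background on 1 CD array, ran from -4.05 to -3.05 in CD and from -3.16 to -2.25 in HFHSD. SDC4, a satellite cell surface gene outside this marker list, went the other way, at -0.82. PAX7, the defining factor of satellite cells, had no named probe. The part of these cell types in the MEF2C and MYOD1 differences was not tested.

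The genes around the members were taken from 4 lists, each gene represented by its brightest probe. By that measure 0.995% of 2613 tested genes passed, their groups did not overlap for 13.0%, and the median difference was -0.09. Of these genes, 1108 were higher and 1505 lower in HFHSD. None of the 46 genes measured in the lists passed.

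Of the partners and inhibitors of basic helix-loop-helix factors, 5 of 19 were measured and 0 passed. Of these, 3 were higher and 2 lower, and the median difference was 0.10. All 5 were inhibitors, the ID proteins, which capture E proteins, and the Notch target HEY1, and no E protein had a named probe. ID1 had a CD mean of 3.61 ± 0.19 (SD, n = 3) and an HFHSD mean of 2.89 ± 0.65 (SD, n = 6), and differed by -0.72 (SE 0.36, limma adjusted p = 0.373). The ID1 value shrank to -0.30 with slide as a fixed block and to -0.27 with normexp correction and percentile scaling, though it was -0.73 in the latter without CD 1. ID2 differed by 0.22, and by 0.55 with the slide block. ID3 differed by -0.27, a sign that turned to 0.06 with the slide block and to 0.11 in the normexp setting, where it was -0.44 without CD 1.

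Among upstream and satellite cell factors, 8 of 30 were measured, 7 higher and 1 lower, beside 1108 of 2613 tested genes higher. Of the higher genes, LBX1, MET, DLL4 and CXCR4 were not above background on every CD array. They passed the filter on dim probes through the HFHSD arrays, so the count of higher genes shows no shift of the list. The groups did not overlap for 2 of the 8 genes, beside 13.0% of all tested genes. The median difference of the 8 genes was 0.33, -0.16 after normexp correction and percentile scaling, and 0.19 in that setting without CD 1. VCAM1, an adhesion molecule of satellite cells and activated endothelium, differed by 0.99 (SE 0.21, limma adjusted p = 0.0576) and did not overlap between the groups, and it passed in 7 of 22 alternative settings. CXCR4, a chemokine receptor, differed by 0.78 (limma adjusted p = 0.210), with a sign that turned to -0.22 in the same normexp setting and was 0.19 there without CD 1. SDC4, a heparan sulphate proteoglycan of the satellite cell surface, differed by -0.82 (limma adjusted p = 0.180).

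Of the regulators and cofactors of MEF2, 12 of 30 were measured, 6 of them higher and 6 lower, and the median difference was 0.04. NFATC1, the calcineurin target that works beside MEF2 in slow fibres, differed by -0.92 (SE 0.28, limma adjusted p = 0.135), although its other probe was higher. MAPK14, the p38 kinase that phosphorylates MEF2 factors, differed by -0.33, and PRKAA2, the catalytic AMPK subunit of muscle, by 0.42 (limma adjusted p = 0.401 and 0.387). Both kept these signs in all 22 alternative settings, with MAPK14 at -0.16 and PRKAA2 at 0.90 after normexp correction and percentile scaling.

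Muscle genes that the members switch on leaned to lower values: 21 of 37 were measured, 18 lower and 3 higher, and 0 passed. By the same measure 1505 of 2613 tested genes were lower. The groups did not overlap for 3 of the 21 muscle genes (XIRP1, SRPK3 and ENO3), near the 13.0% of all tested genes. The median of the muscle genes was -0.24, against -0.09 for all tested genes. It turned to 0.26 with normexp correction and percentile scaling, but was -0.14 in that setting without CD 1. XIRP1, an actin-binding protein of striated muscle, had a CD mean of 2.90 ± 0.64 (SD, n = 3) and an HFHSD mean of 1.28 ± 0.84 (SD, n = 6). The difference was -1.63 (SE 0.49, limma adjusted p = 0.131), and its groups did not overlap. SRPK3, a muscle kinase under the control of MEF2C, differed by -0.71 (limma adjusted p = 0.194) with 5 of 5 probes lower and no overlap between groups. PGAM2, the muscle phosphoglycerate mutase, differed by -0.57 (limma adjusted p = 0.177). ENO3, the muscle enolase, named after its values were seen as the remaining gene without overlap, differed by -0.46 (limma adjusted p = 0.258). After normexp correction and percentile scaling SRPK3 was at -0.21, PGAM2 at -0.12 and ENO3 at -0.04, and without CD 1 in that setting they were at -0.55, -0.50 and -0.42. MEF2C was higher and its target SRPK3 lower in HFHSD, and neither difference passed.

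**Figure D5:**
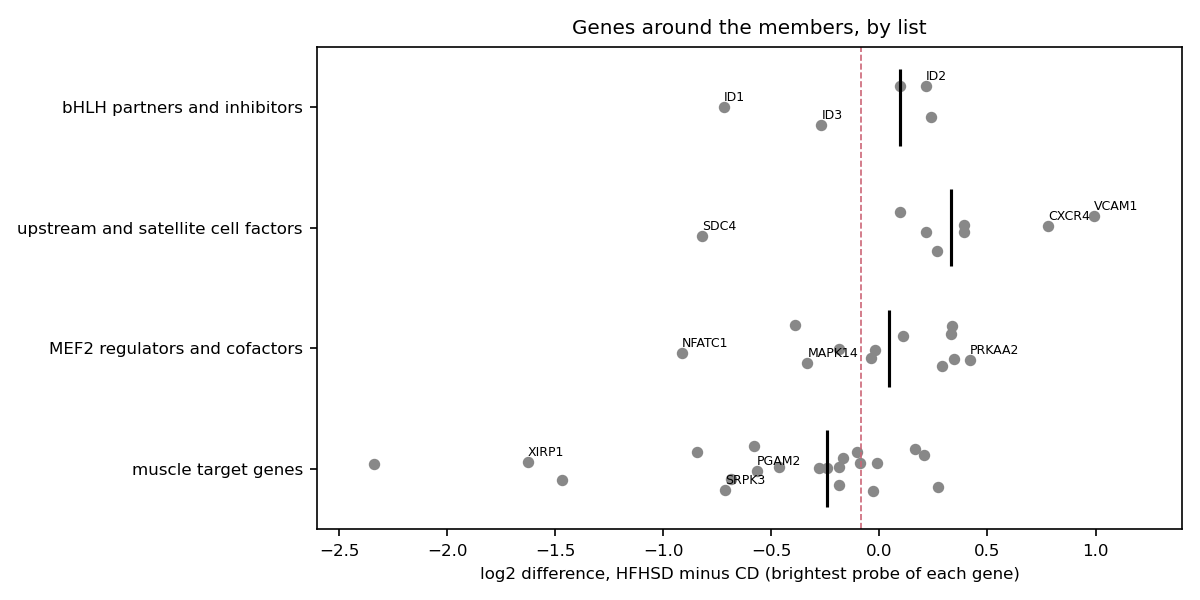
Difference between HFHSD and CD in log2 for the brightest probe of each measured gene in the 4 lists, with the list median as a black bar and the median of all 2613 tested genes as a dashed line. Genes given by the naming rule are labelled, and 18 of 21 muscle target genes lie below 0, as do 1505 of the 2613 tested genes.

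For each member, the genes with the most similar levels over the 9 arrays were found among the other 2612 tested genes, as a description without a test. MYOD1 was most like FADD, an adaptor of death receptors (Pearson r = 0.89), the nucleolar protein NOP56 (0.88) and the hypoxia factor EPAS1 (0.86). With each group centred on its mean these fell to 0.68, 0.65 and 0.64. MYOD1 was not above background on CD 1, HFHSD 1, HFHSD 3 and HFHSD 5, so its neighbours rest partly on signals without an order. MYOG was most like HSD11B2, which inactivates cortisol (r = 0.90), and MYF6 was most like LYSMD1 (0.95). MEF2A was most like ITPK1, an inositol phosphate kinase (r = 0.95), PGRMC2 (0.95) and RCN2 (0.95). MEF2C was most like QDPR, a pterin reductase (r = 0.95), MAGED1 (0.93) and ACSS2, an acetyl-CoA synthetase (0.92). After centring, r was 0.89 for HSD11B2, 0.95 for LYSMD1, 0.95 for ITPK1 and 0.90 for QDPR. The 9 arrays shared 3 slides, and picking the highest r among 2612 genes by itself favours high values. The remaining neighbours were SLC23A2 (0.88) and PDZK1IP1 (0.87) for MYOG, and MOBKL3 (0.93) and RAE1 (0.92) for MYF6.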

How the data were processed

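RNA of 9 pigs was measured on 9 Agilent arrays with 1 dye. Per the file headers, the authors extracted spot intensity values with Agilent Feature Extraction 10.7.3.1, which subtracts background and detrends within an array. The deposited value table holds the same intensity values, with 0 spots differing.

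Control and outlier spots were left out, spots of a probe were averaged in log2, and the 75th percentile of each array was subtracted. Probes well above background on at least 3 arrays were tested with limma 3.58.1 in R 4.3.3 (lmFit, eBayes, no covariates) over all 9 arrays. Benjamini-Hochberg adjustment ran over 27922 probes. The fit was tested on simulated data. Probes were named by accession through RefSeq of Sscrofa11.1, without coordinates, because the files name no build. Of 43603 probes, 6891 were named.

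The members, lists and tests were chosen with earlier results of these data known. The named genes are the members, up to 3 genes of each list with the smallest p, any that passed, and the 3 genes most like each member. Normexp used spot medians, the foreground column at hand. Results for 2 genes of the lists are not reported here.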

Additional observations from a re-analysis of the deposited data

Results flagged for a closer look

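Among 22 probes examined in the HFHSD arrays, 2 had an array far from the others, where chance gives about 1 in 20. VCAM1 was at 1.45 on HFHSD 5, below the next array at 1.999. PGAM2 was at 9.14 on HFHSD 3, above the next array at 8.72.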

How the results depend on the processing

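The number of probes that passed over all tested probes, 345, was 128 with median centring, 88 with normexp and percentile scaling, 856 with normexp and quantile normalisation, 66 without a filter on dim probes, 735 with probes above background on all arrays, 82 with slide as a fixed block, 678 with slide as a random block, 1206 with array weights and 615 with a variance trend and robust prior. It ran from 25 without CD 3 to 325 without HFHSD 4 when single arrays were left out. In alternatives chosen after seeing the data it was 55 without slide 1 and 215 with normexp and percentile scaling when CD 1 was left out. The count of member probes, 0, was 2 with probes above background on all arrays, 1 with slide as a random block, 3 with array weights and 1 with the variance trend, and 0 in all 9 fits without 1 array (0 to 0) and in both added alternatives. Signs turned with normexp and percentile scaling for MYOG (0.0087), MYF6 (0.090), ID3 (0.11) and CXCR4 (-0.22), and for ID3 also with slide as a fixed block (0.064). The normexp turns were gone with CD 1 left out of that setting; the cause of the turn with the slide block was not tested. The MYOD1, MEF2A and MEF2C probes kept their sign in every alternative run, with MYOD1 between -2.20 and -0.44. No paired analysis was possible because each pig received only a single diet. The number of arrays and, for MYOD1, the signal over background limit the precision.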

Other observations

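CSRP3, the muscle LIM protein that acts as a cofactor of the myogenic factors, was chosen after its values were seen for its spread within the HFHSD group. It was at 7.69, 7.01 and 7.48 on CD 1, CD 2 and CD 3, and at 0.44, 8.13, 5.10, 7.41, 3.23 and 6.03 on HFHSD 1 to HFHSD 6. HFHSD 2 and HFHSD 4 thus lay at or above the CD level, while HFHSD 1 and HFHSD 5 lay far below it. Its difference of -2.34 (SE 1.45) did not pass limma (adjusted p = 0.479). PPARGC1A, a coactivator that works with MEF2 factors on mitochondrial genes and was also chosen after its values were seen, spread widely in the CD group, at 3.88, 2.56 and 5.81, against 1.89 to 4.03 in HFHSD. XIRP1 was at -0.06 on HFHSD 5 and 0.59 on HFHSD 1, the same 2 arrays on which CSRP3 was lowest. Within HFHSD it was highest on HFHSD 6 and HFHSD 3, at 2.09 and 1.99, which were not the highest arrays for CSRP3.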
